A study of Mus musculus with 3 samples.

Results

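The Hox genes of the 4 mouse Hox clusters were taken from the RNA-seq table of *tw18* embryos by their symbols, as all genes whose symbol is Hoxa, Hoxb, Hoxc or Hoxd followed by a number. The rule found 39 of the 23421 genes in the table, namely 11 *Hoxa*, 10 *Hoxb*, 9 *Hoxc* and 9 *Hoxd* genes. RNA was sequenced from the embryo at E6.5 in 3 libraries, 1 each of wild type, *tw18*/+ and *tw18*/*tw18*. All were of strain 129/SvEv and from matings between *tw18*/+ mice. The paper, however, proposes that non-inbred backgrounds, differing from embryo to embryo, might explain why the phenotype varied. *tw18* is a lethal *t*-haplotype of chromosome 17 with a deletion that removes *Ppp2r1a*, which encodes the scaffold subunit of the phosphatase PP2A. The labels call the tissue epiblast, while the methods of the study describe the embryo proper, that is epiblast with the visceral endoderm around it, and neither says how many embryos made up a library. None of the Hox clusters lies on chromosome 17. With 1 library per genotype no difference has a replicate check, so no test was run and no p-value is given.

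Hox genes encode transcription factors with a homeodomain, a DNA-binding fold, and give cells their position along the body axis. The genes of a cluster lie in a row and are numbered so that genes with the same number in different clusters, called paralogs, are the closest relatives. In the embryo low-numbered genes are switched on first, during gastrulation, and high-numbered genes later and further back, with CDX factors, WNT signals and retinoic acid acting upstream. Beyond the embryo, *Hoxa10* and *Hoxa11* are known for their part in the uterus, where the stroma needs them to become decidua, the maternal tissue around the implanted embryo.

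Values are FPKM, fragments per kilobase of transcript scaled to the size of the library, and can be compared between genes because they are per length. The spacing of low FPKM values put the depth of *tw18*/+ at 1.40 times and that of *tw18*/*tw18* at 1.39 times that of wild type, with 1 fragment on a transcript of 1 kb worth an FPKM of 0.0727 in wild type, 0.0518 in *tw18*/+ and 0.0523 in *tw18*/*tw18*. Fragment numbers below follow from it, and bounds in brackets are 95% intervals (exact Poisson, or exact binomial for a ratio) that cover counting error only, since fragments copied by PCR are not independent. The FPKM of *Ppp2r1a* was 146 in wild type, 81.7 in *tw18*/+ and 12.8 in *tw18*/*tw18*, the order of the labels. Although the deletion removes the gene, about 588 fragments were left in *tw18*/*tw18*, at 0.0872 times the wild-type level [0.0799 to 0.0950]. Their source was not tested, which limits what levels in that library say about homozygous cells alone. As to tissue, the epiblast gene *Pou5f1* stood at 628, 721 and 274 in the same order, and the decidual prolactin gene *Prl8a2* stood at 1504, 155 and 377. Markers of the embryo and of the maternal decidua were thus detected side by side in all 3 libraries.

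Of the 39 Hox genes, 9 reached an FPKM of 1 in at least 1 library, and all 9 were highest in *tw18*/*tw18*, as were 41.0% of the 13118 genes of the table that reached 1. *Hoxa9*, *Hoxd3*, *Hoxd4* and *Hoxd8* were below 1 in wild type and entered the set through libraries where they were higher. The 9 were *Hoxa9*, *Hoxa10* and *Hoxa11* of the *Hoxa* cluster and *Hoxd3*, *Hoxd4*, *Hoxd8*, *Hoxd9*, *Hoxd10* and *Hoxd11* of the *Hoxd* cluster. The other 30 stayed below 1 throughout, among them every *Hoxb* and *Hoxc* gene. Summed over the 39 genes, the level was 21.2 in wild type, 31.2 in *tw18*/+ and 118 in *tw18*/*tw18*. In bulk samples such as these, a larger share of cells that express a gene and more RNA per cell cannot be told apart.

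**Figure D1:**
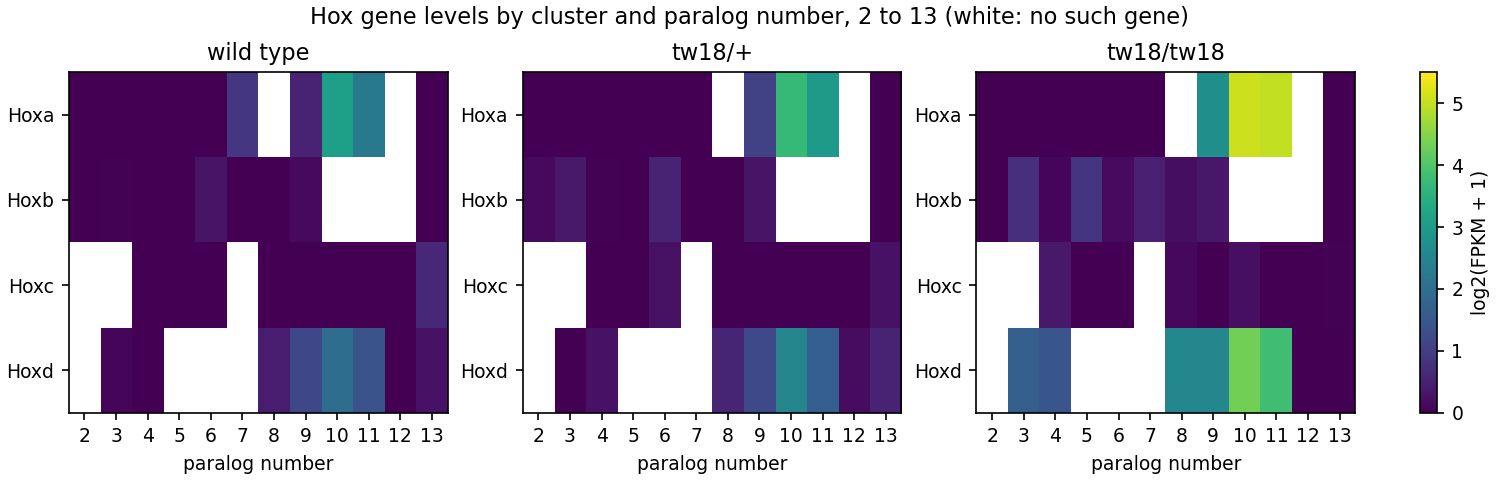
Level of the Hox genes with paralog numbers 2 to 13 as log2(FPKM + 1), coloured from 0 (dark) to the highest levels (yellow), with clusters as rows, paralog numbers as columns and 1 panel per library. The brightest squares lie in the *Hoxa* and *Hoxd* rows at paralogs 9 to 11 in every panel. They reach furthest in *tw18*/*tw18*, where *Hoxd3*, *Hoxd4* and *Hoxd8* also stand out, while the *Hoxb* and *Hoxc* rows stay dark. In the wild-type panel *Hoxa7*, at an FPKM of 0.817, is above *Hoxa9*, at 0.450.

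The 9 genes sit side by side on the chromosomes (GRCm38, annotation GENCODE M21). *Hoxa9*, *Hoxa10* and *Hoxa11* follow each other on the minus strand at chr6:52223100-52245810, within a cluster of 105 kb. On one side of them lies *Hoxa7*, which had 0.817 in wild type and was listed at 0 in the other two, and on the other side lies *Hoxa13*, listed at 0 in all 3. *Hoxd11* to *Hoxd8* occupy the plus strand at chr2:74679557-74707933, within a cluster of 96.8 kb, followed by *Hoxd4* and *Hoxd3*. *Hoxd12* and *Hoxd13*, next to *Hoxd11* on the other side, were listed at 0 in *tw18*/*tw18* and stayed below an FPKM of 1 elsewhere.

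Because paralogs are alike, the homeobox, the stretch in exon 2 of 2 that encodes the homeodomain, was compared between the paralogs of both clusters that carried most of the signal, to see whether 50-base reads could tell them apart. In the sequences below, read 5′ to 3′ on the coding strand of GRCm38, capitals mark bases that differ from the paralog in the other cluster.
Hoxa10 homeobox, chr6:52232554-52232733, minus strand: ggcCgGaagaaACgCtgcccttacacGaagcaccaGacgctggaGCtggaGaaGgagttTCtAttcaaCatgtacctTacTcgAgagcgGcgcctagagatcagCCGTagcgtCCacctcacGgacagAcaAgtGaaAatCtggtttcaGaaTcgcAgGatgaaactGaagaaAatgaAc
Hoxd10 homeobox, chr2:74694141-74694320, plus strand: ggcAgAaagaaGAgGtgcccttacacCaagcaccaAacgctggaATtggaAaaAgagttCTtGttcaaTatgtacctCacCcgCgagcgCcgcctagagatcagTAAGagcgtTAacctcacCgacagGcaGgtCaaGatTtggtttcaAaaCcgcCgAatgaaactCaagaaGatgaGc
Hoxa11 homeobox, chr6:52243402-52243581, minus strand: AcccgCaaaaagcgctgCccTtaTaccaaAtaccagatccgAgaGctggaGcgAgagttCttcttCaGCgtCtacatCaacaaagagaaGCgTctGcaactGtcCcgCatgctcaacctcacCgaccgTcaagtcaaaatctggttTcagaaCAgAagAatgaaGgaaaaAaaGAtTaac
Hoxd11 homeobox, chr2:74683917-74684096, plus strand: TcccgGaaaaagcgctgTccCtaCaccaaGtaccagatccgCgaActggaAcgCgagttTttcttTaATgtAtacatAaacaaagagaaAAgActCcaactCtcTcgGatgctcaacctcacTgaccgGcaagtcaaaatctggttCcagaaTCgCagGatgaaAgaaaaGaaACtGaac
*Hoxa10* and *Hoxd10* differed at 38 of the 180 bases but at only 3 of the 60 encoded residues, and the longest identical run was 14 bases. For *Hoxa11* and *Hoxd11* 35 bases and 3 residues differed, with a longest run of 17 bases. No run within the homeobox of these paralogs was as long as a read. Sharing with overlapping genes was another matter. *Hoxa9*, *Hoxa10*, *Hoxd8* and *Hoxd9* shared 0% of their 50-base words with another gene of the annotation, whereas the share was 3.17% for *Hoxd10*, 20.5% for *Hoxd11*, 33.7% for *Hoxa11*, 42.2% for *Hoxd4* and 86.3% for *Hoxd3*. *Hoxd3* shares its words with *Hoxd4*, *Gm28230* and the antisense *Hoxd3os1*, and the *Hoxd4* transcript used shares them with *Gm28230*. The values of *Hoxd3* and *Hoxd4* are therefore uncertain. *Hoxa11* shares its words with *Hoxa11os*, an antisense RNA on the opposite strand. The libraries were made to keep strand, but whether strand was used in counting is not given in the sources used here.

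*Hoxa10* had the highest Hox level in every library. Its FPKM was 7.64 in wild type, 11.8 in *tw18*/+ and 32.9 in *tw18*/*tw18*, from about 270, 586 and 1614 fragments. The level in *tw18*/*tw18* was 4.31 times that of wild type [3.78 to 4.91] and 2.78 times that of *tw18*/+ [2.53 to 3.06]. *Hoxa11*, its neighbour and partner in the uterus, had 3.67 in wild type, 6.87 in *tw18*/+ and 30.8 in *tw18*/*tw18*, or 8.39 times the wild-type level [6.96 to 10.3]. *Hoxa9*, the third gene of the row, known for its role in blood progenitors, had 0.450 in wild type, 1.10 in *tw18*/+ and 5.64 in *tw18*/*tw18*, 12.5 times wild type [7.98 to 20.7]. All 3 genes thus showed the same order of libraries, with *tw18*/+ between the others.

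In the *Hoxd* cluster *Hoxd10* was highest, with 2.90 in wild type, 4.71 in *tw18*/+ and 19.1 in *tw18*/*tw18*, and a fold of 6.60 over wild type [5.20 to 8.58]. *Hoxd11*, which acts with *Hoxa11* in the kidney and the forearm, had 1.66, 2.14 and 13.1 in the same order, 7.84 times wild type [5.29 to 12.5]. *Hoxd9* had 1.28 in wild type, 1.31 in *tw18*/+ and 4.82 in *tw18*/*tw18*, the smallest fold of the 8 genes that have one, at 3.78 [2.69 to 5.60]. For all 3 genes *tw18*/*tw18* stood above both other libraries.

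*Hoxd8*, *Hoxd3* and *Hoxd4* were below an FPKM of 1 except in *tw18*/*tw18*. *Hoxd8* had 0.356 in wild type, 0.473 in *tw18*/+ and 4.80 in *tw18*/*tw18*, a fold of 13.5 over wild type [7.68 to 25.5]. *Hoxd3* had 0.0749 in wild type, from about 3 fragments, was listed at 0 in *tw18*/+ and had 2.16 in *tw18*/*tw18*, a ratio to wild type of 28.8 [9.78 to 144]. *Hoxd4* was listed at 0 in wild type, where 3 fragments would give 0.0852, and had 0.203 in *tw18*/+ and 1.79 in *tw18*/*tw18*. For *Hoxd3* and *Hoxd4* the sequence shared with overlapping genes limits what each value says alone.

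**Figure D2:**
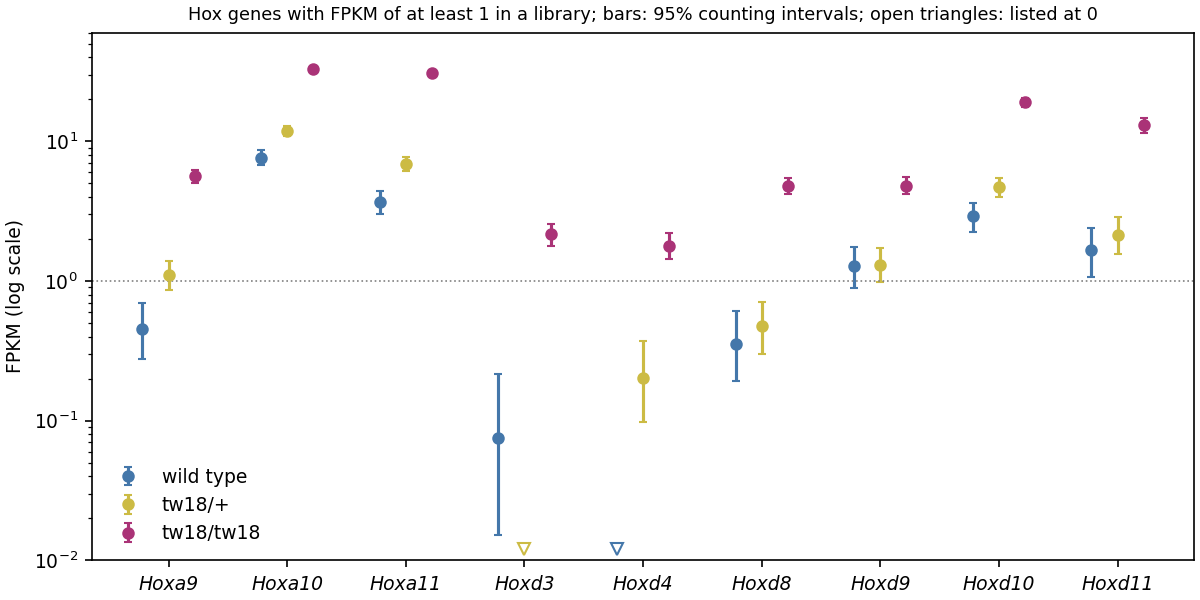
FPKM on a log axis of the 9 Hox genes that reached 1 in a library, with 1 point per library and bars for the 95% counting interval; open triangles stand for values listed at 0, and the dotted line marks an FPKM of 1. The *tw18*/*tw18* point lies above both others for each of the 9 genes, from 1.79 for *Hoxd4* to 32.9 for *Hoxa10*, and its bar does not reach theirs.

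To place these values, a gene was counted as higher in one library where the higher FPKM of the pair was at least 1 and the log2 ratio was at least 1. Of the 9 Hox genes that could be counted, 9 were higher in *tw18*/*tw18* than in wild type and 0 were lower, while of all 12917 genes that could be counted 15.1% were higher and 6.94% lower. *Hoxa9*, *Hoxd3*, *Hoxd4* and *Hoxd8* could be counted only because they were high in *tw18*/*tw18*, so their direction was fixed in advance and none could be counted as lower. The 5 Hox genes that already reached an FPKM of 1 in wild type, *Hoxa10*, *Hoxa11*, *Hoxd9*, *Hoxd10* and *Hoxd11*, do not have that limit, and all 5 were counted as higher, against 8.64% of the 11859 genes at that level in wild type. Against *tw18*/+ the count was also 9 higher and 0 lower of 9, where 14.9% of all genes were higher and 5.65% lower, and both comparisons share the *tw18*/*tw18* library. *Hoxd3*, *Hoxd4* and *Hoxd8* could again be counted only through *tw18*/*tw18*, and of the 6 Hox genes that reached 1 in *tw18*/+ all 6 were higher, against 9.25% of 11879 genes. Over all 39 Hox genes the median log2(FPKM + 1) difference between *tw18*/*tw18* and wild type was 0.000, as it was over all genes, since most members were at or near 0 in both libraries.

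Ranked by this difference among the 13118 genes that reached an FPKM of 1, *Hoxa11* was at place 19 from the top, with 2.77. *Hoxd11* followed at place 51 with 2.40, *Hoxd10* at 57 with 2.37 and *Hoxa9* at 89 with 2.19. The lowest of the 9 was *Hoxd9*, at place 582 with 1.35. *Hoxa10*, the most abundant, was at place 155 with 1.97.

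The *tw18*/+ library differed much less from wild type. Only *Hoxa9* was counted as higher in *tw18*/+, of 6 Hox genes that could be counted, and 0 were lower, with 4.70% of all genes higher and 5.02% lower. *Hoxa9* could be counted only through its level in *tw18*/+, and of the 5 genes that reached 1 in wild type 0 were higher, against 178 of the 11859 genes at that level. The *tw18*/+ to wild-type ratio was 2.45 for *Hoxa9* [1.48 to 4.27], 1.55 for *Hoxa10* [1.34 to 1.79], 1.87 for *Hoxa11* [1.51 to 2.35] and 1.63 for *Hoxd10* [1.23 to 2.18], and these intervals lie above 1. Those of *Hoxd8* at 1.33 [0.644 to 2.81], *Hoxd9* at 1.03 [0.672 to 1.63] and *Hoxd11* at 1.29 [0.789 to 2.23] include 1, so at this depth wild type and *tw18*/+ were not distinguishable for them. The order wild type, *tw18*/+, *tw18*/*tw18* from low to high held for 8 of the 9 genes, all but *Hoxd3*, and for 21.1% of all 13118 genes. *Hoxd4* and *Hoxd8* reached 1 only in *tw18*/*tw18*, which fixed their top place. Of the 5 genes at 1 or more in wild type the order held for 5, and for 17.7% of all 11859 genes at that level. For *Hoxd8*, *Hoxd9* and *Hoxd11* its lower step is within counting error.

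The genes did not all differ by the same factor. *Hoxa11* stood at 0.481 of the *Hoxa10* level in wild type [0.381 to 0.596], at 0.580 in *tw18*/+ [0.503 to 0.667] and at 0.936 in *tw18*/*tw18* [0.870 to 1.01], so that the interval included 1 in *tw18*/*tw18* only. *Hoxa9* stood at 0.0589 of *Hoxa10* in wild type, 0.0932 in *tw18*/+ and 0.171 in *tw18*/*tw18*. These ratios are taken within a library and do not depend on how the libraries were scaled. Ratios with *Hoxa11* or *Hoxd11*, here and below, are uncertain because of shared sequence. *Hoxa11* shares 33.7% of its words with the antisense *Hoxa11os*, and *Hoxd11* shares 20.5% with *Gm28309*. Across the clusters, *Hoxd11* kept a more even relation to its paralog *Hoxa11*, at 0.453 in wild type [0.278 to 0.694], 0.312 in *tw18*/+ [0.224 to 0.427] and 0.424 in *tw18*/*tw18* [0.371 to 0.482], intervals that overlap. *Hoxd9* relative to *Hoxd10* was 0.440 in wild type [0.286 to 0.658] and 0.252 in *tw18*/*tw18* [0.214 to 0.296], which overlap only narrowly.

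By cluster, *Hoxa* genes made up 61.2% of the summed Hox level in wild type, 64.7% in *tw18*/+ and 58.7% in *tw18*/*tw18*. *Hoxd* genes made up 33.1%, 30.3% and 38.7% in the same order. By paralog number, groups 9 to 11 held 83.6% of the sum in wild type, 90.5% in *tw18*/+ and 90.4% in *tw18*/*tw18*. Within them the share of group 11 was 25.2% in wild type, 28.9% in *tw18*/+ and 37.1% in *tw18*/*tw18*, and that of group 10 was 49.8%, 53.1% and 44.2%. The profile was thus one of high-numbered paralogs in each library, wild type included.

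**Figure D3:**
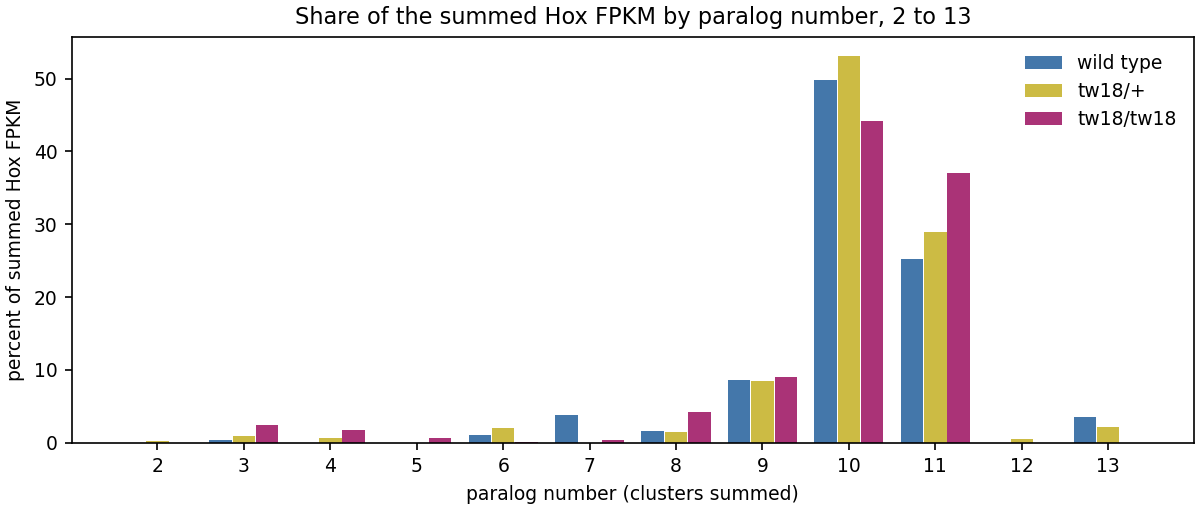
Percent of the summed FPKM of the 39 Hox genes that falls to each paralog number from 2 to 13, clusters added together, with 1 bar per library and an axis from 0. Groups 10 and 11 hold the tallest bars in all 3 libraries, and the bar of group 11 is tallest in *tw18*/*tw18* at 37.1%.

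Among the 30 Hox genes below an FPKM of 1, the sum was 3.14 in wild type, 2.51 in *tw18*/+ and 3.06 in *tw18*/*tw18*. The filter bears on this comparison, since genes that passed 1 only in *tw18*/*tw18*, such as *Hoxd3*, *Hoxd4* and *Hoxd8*, are left out of the sum. The nearest to the threshold were *Hoxa7* below it, at 0.817 in wild type, and *Hoxd4* above it, at 1.79 in *tw18*/*tw18*. Listed at 0 in all 3 were 11 genes, *Hoxa2*, *Hoxa3*, *Hoxa4*, *Hoxa5*, *Hoxa6*, *Hoxa13*, *Hoxb13*, *Hoxc5*, *Hoxc9*, *Hoxc11* and *Hoxc12*. Of the other 19, 9 were highest in *tw18*/*tw18*, 5 in wild type and 5 in *tw18*/+. Some of these low values went the other way from the 9 genes. *Hoxb1*, which patterns the hindbrain, had 0.314 in wild type (about 9 fragments), 0.0749 in *tw18*/+ (about 3) and a listed 0 in *tw18*/*tw18*. *Hoxd1* had 0.544 in wild type, from about 14 fragments, and was listed at 0 in the other two, although the wild-type library was the shallowest. Paralog group 13, the end of the clusters, amounted to about 25, 32 and 1 fragments, all from *Hoxc13* and *Hoxd13*. A listed 0 in such a table can also be an estimate that failed, and these genes were singled out after their values were seen.

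The *Hoxb* cluster had low values that summed to an FPKM of 0.662 in wild type, 1.14 in *tw18*/+ and 2.49 in *tw18*/*tw18*. Not scaled to depth, these were about 18 fragments in wild type [10.7 to 28.4], 47 in *tw18*/+ [34.5 to 62.5] and 107 in *tw18*/*tw18* [87.7 to 129] over 10 genes. *Hoxb3* had 0.0218, 0.291 and 0.677 and shares 68.7% of its words with the antisense *Hoxb3os*, so its value is uncertain, and *Hoxb5* was listed at 0 in wild type and *tw18*/+ and had 0.798 in *tw18*/*tw18*. Over the 9 *Hoxc* genes the numbers, also not scaled to depth, were about 18, 16 and 21 fragments, with overlapping intervals. The members behind these totals differed. *Hoxc13* had about 18 fragments in wild type, 10 in *tw18*/+ and 1 in *tw18*/*tw18*. *Hoxc4*, *Hoxc10* and *Hoxc8* had about 11, 6 and 3 in *tw18*/*tw18* and were listed at 0 in the other libraries.

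Upstream sequence is shown for *Hoxa10*, *Hoxa11*, *Hoxd10* and *Hoxd11*, the *Hoxa* and *Hoxd* members of the 2 paralog groups with the highest levels. The 250 bases before a RefSeq start site follow (GRCm38.p6, 5′ to 3′ in the direction of the gene), with capitals for the motifs found among those searched on both strands.
Hoxa10 upstream, chr6:52234940-52235189, minus strand: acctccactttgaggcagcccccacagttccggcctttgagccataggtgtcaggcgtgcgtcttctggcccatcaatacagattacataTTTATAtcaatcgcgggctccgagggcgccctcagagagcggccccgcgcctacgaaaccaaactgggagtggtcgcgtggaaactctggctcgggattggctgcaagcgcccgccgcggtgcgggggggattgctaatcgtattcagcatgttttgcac
Hoxa11 upstream, chr6:52245811-52246060, minus strand: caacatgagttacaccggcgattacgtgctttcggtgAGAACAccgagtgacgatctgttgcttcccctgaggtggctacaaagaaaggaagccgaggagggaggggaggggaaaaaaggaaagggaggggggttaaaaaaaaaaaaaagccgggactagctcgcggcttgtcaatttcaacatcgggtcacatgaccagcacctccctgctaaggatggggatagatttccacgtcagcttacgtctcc
Hoxd10 upstream, chr2:74691641-74691890, plus strand: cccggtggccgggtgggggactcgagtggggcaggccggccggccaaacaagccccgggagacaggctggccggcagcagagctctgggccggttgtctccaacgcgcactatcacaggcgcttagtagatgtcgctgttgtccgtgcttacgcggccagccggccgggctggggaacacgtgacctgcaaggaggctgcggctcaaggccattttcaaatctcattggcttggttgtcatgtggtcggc
Hoxd11 upstream, chr2:74682073-74682322, plus strand: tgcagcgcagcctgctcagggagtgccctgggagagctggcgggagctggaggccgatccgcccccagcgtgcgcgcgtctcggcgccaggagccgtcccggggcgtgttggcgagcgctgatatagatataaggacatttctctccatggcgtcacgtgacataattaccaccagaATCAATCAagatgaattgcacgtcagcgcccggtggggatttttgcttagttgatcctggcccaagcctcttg
*Hoxd10* holds none of the motifs, nor do the stretches before a second start of *Hoxa10* and of *Hoxd11*, which are not printed. The *Hoxa10*, *Hoxd10* and *Hoxd11* stretches hold no annotated exon bases, while 98 bases of the *Hoxa11* stretch belong to an annotated exon. Promoter windows of 300 bases, 250 before and 50 after a start, were found for 22 of the 39 genes, in 24 windows. Matches were taken at any position on either strand, so a match of letters need not be a working site. TATAAA, the letters of a TATA box, was marked in *Hoxa10* on the opposite strand. It occurred in 4 of the 24 windows and in 13.6% of all 32544 promoters. TGATNNAT, a form bound by PBX with HOX proteins and marked in *Hoxd11* on the opposite strand, occurred in 4 windows and in 8.79% of all promoters. AGAACA, the half-site of steroid receptors such as the progesterone receptor, occurred in 2 windows, those of *Hoxa9* and *Hoxa11*, and in 18.9% of all promoters. The CDX motif TTTATNG was in 2 windows and 10.8% of all promoters, and the retinoic acid element of the DR5 type was in 0 windows and 0.00922%. No motif searched was common to the 9 genes. CpG dinucleotides numbered a median of 15.0 per window in the 9 genes, 14.0 in the other Hox genes with a window and 7 in all promoters.

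Genes that act with or on Hox genes were taken from lists and counted by the same rule, to be read against the 15.1% of all genes that were higher and the 6.94% that were lower. A gene below 1 in wild type could be counted only where *tw18*/*tw18* was high, so counts over the genes at 1 or more in wild type, of which 8.64% were higher and 7.56% lower, are given too. Among 9 TALE cofactors, homeodomain proteins that bind DNA together with HOX proteins, 2 were higher in *tw18*/*tw18* than in wild type and 2 lower, or 1 and 2 of the 8 at 1 or more in wild type. *Meis1* had 0.736 in wild type, 1.37 in *tw18*/+ and 5.30 in *tw18*/*tw18*, and *Pknox2* had 4.27, 2.42 and 14.4. *Pbx3* was lower, at 25.0, 17.0 and 7.04, and *Pbx4* had 1.67 and 0.924 and was listed at 0 in *tw18*/*tw18*. The cofactors thus did not move as 1 group, and the median difference of log2(FPKM + 1) was 0.01.

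Of the *Cdx* genes, which switch on Hox genes in the posterior embryo, *Cdx1* and *Cdx4* were listed at 0 in all libraries and *Cdx2*, also a trophoblast gene, had 0.473, 0.677 and 1.19. Of 10 retinoic acid genes that could be counted, 4 were higher and 1 lower, but of the 7 at 1 or more in wild type 1 was higher, *Aldh1a2*, and 1 lower. *Aldh1a2*, which makes retinoic acid, had 7.29 in wild type, 8.27 in *tw18*/+ and 22.1 in *tw18*/*tw18*, and *Rarb*, a receptor that is itself a target, had 0.392, 0.393 and 1.77. Also higher were *Aldh1a1*, from a listed 0 to 1.05, and *Cyp26b1*, from 0.493 to 1.58, while *Crabp1* was lower, at 6.06 in wild type and 2.46 in *tw18*/*tw18*. None of 16 Trithorax and Polycomb genes, which keep Hox genes on or off, passed the fold in either direction. *Ezh2*, the Polycomb methyltransferase, had 45.8, 60.7 and 35.4, and *Kmt2a*, its Trithorax counterpart, had 11.7, 13.5 and 13.7.

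Genes next to the clusters did not pass the fold either, 0 of 8 in each direction. *Evx1*, beyond *Hoxa13*, had 3.17 in wild type, 3.23 in *tw18*/+ and 3.72 in *tw18*/*tw18*, and *Mtx2*, near the *Hoxd* cluster, had 49.6, 49.6 and 33.0. Of noncoding genes in the clusters, 7 of the 18 listed were found by symbol and all 7 were listed at 0 in all 3 libraries. Of these, 6 are microRNA hairpins of 68 to 110 bases, on which 3 fragments would give an FPKM of 1.41 to 3.21, so a 0 there says little. An antisense gene given as *Hoxa11as*, a symbol not among those listed, had 6.77 in wild type, 6.46 in *tw18*/+ and 25.5 in *tw18*/*tw18*. The same library was highest as for *Hoxa11*. Whether *Hoxa11as* is the listed *Hoxa11os* under another symbol was not checked. As the strand setting is not given, the values of *Hoxa11as* and *Hoxa11* may not be independent. Other homeobox genes outside the clusters gave 4 higher and 0 lower of 6, or 3 and 0 of the 5 at 1 or more in wild type, among them *Emx2* with 1.45, 2.89 and 9.96 and *Prrx1* with 0.740, 0.813 and 3.42.

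Markers of other tissues moved between the libraries too. Of 15 genes of decidua and endometrial stroma, where *Hoxa10* and *Hoxa11* are also expressed, 10 were higher in *tw18*/*tw18* than in wild type and 2 lower (9 and 2 of the 14 at 1 or more in wild type), with a median difference of log2(FPKM + 1) of 1.08. The transcription factor *Hand2*, which the paper places among regulators of lateral mesoderm, had 27.5 in wild type, 16.3 in *tw18*/+ and 63.0 in *tw18*/*tw18*. *Nr2f2* had 4.50, 4.79 and 19.1. The estrogen receptor gene *Esr1* had 2.25, 2.92 and 8.91, and *Dio3*, a thyroid hormone-inactivating enzyme of decidua, had 2.98, 5.69 and 27.5. Also higher were *Pgr*, *Wt1*, *Wnt4*, *Bmp2*, *Dcn* and *Lum*. The paper reports the higher *Bmp2* too, in its account of BMP signalling. Whether the RNA of these genes came from maternal or embryonic cells was not tested. The 2 lower genes were the decidual prolactins *Prl8a2* and *Prl3c1*, the latter with 121, 13.2 and 25.2, and as they dominate the sum, the summed level of the list was 1731, 254 and 667. Against wild type the stromal genes and the prolactins of the list thus differed in direction. Against *tw18*/+ 11 genes of the list were counted as higher in *tw18*/*tw18* and 0 as lower. *Prl8a2* was among them at 2.43 times [2.33 to 2.54], and *Prl3c1* was just short of the fold at 1.91 times [1.62 to 2.27]. *Foxo1* of the same list went the other way without passing the fold, at 0.710 times [0.669 to 0.754]. Of 5 genes known as targets of HOXA10 in the uterus, 3 could be counted and 3 were higher, of which *Ptger4* could be counted only through *tw18*/*tw18*. They were *Emx2*, *Itgb3* (2.69, 1.72 and 5.63) and *Ptger4* (0.504, 1.12 and 1.71). Not counted were *Igfbp1*, at 0.476 in wild type, 0.0341 in *tw18*/+ and a listed 0 in *tw18*/*tw18*, and *Ptger3*. *Ptger3* had 0.395, 0.565 and 0.775 in the same order. The list does not separate targets that HOXA10 raises from those it lowers, so these directions say nothing about HOXA10 activity.

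Over the genes at 1 or more in wild type, other lists gave 1 higher and 0 lower of 2 for uterine epithelium, 3 and 2 of 5 for smooth muscle, 2 and 0 of 5 for endothelium, 3 and 0 of 4 for allantois and extra-embryonic mesoderm, and 4 and 1 of 5 for extra-embryonic ectoderm. Of 10 visceral endoderm genes 0 passed the fold, with summed levels of 895, 886 and 1154. The embryonic lists were lower, with 5 of 10 epiblast genes and 7 of 9 genes of primitive streak and nascent mesoderm lower and 0 higher in either. *T*, a gene of the primitive streak, had 18.3 in wild type and 6.16 in *tw18*/+ and was listed at 0 in *tw18*/*tw18*. The part of maternal or other tissues in the Hox levels was not tested.

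**Figure D4:**
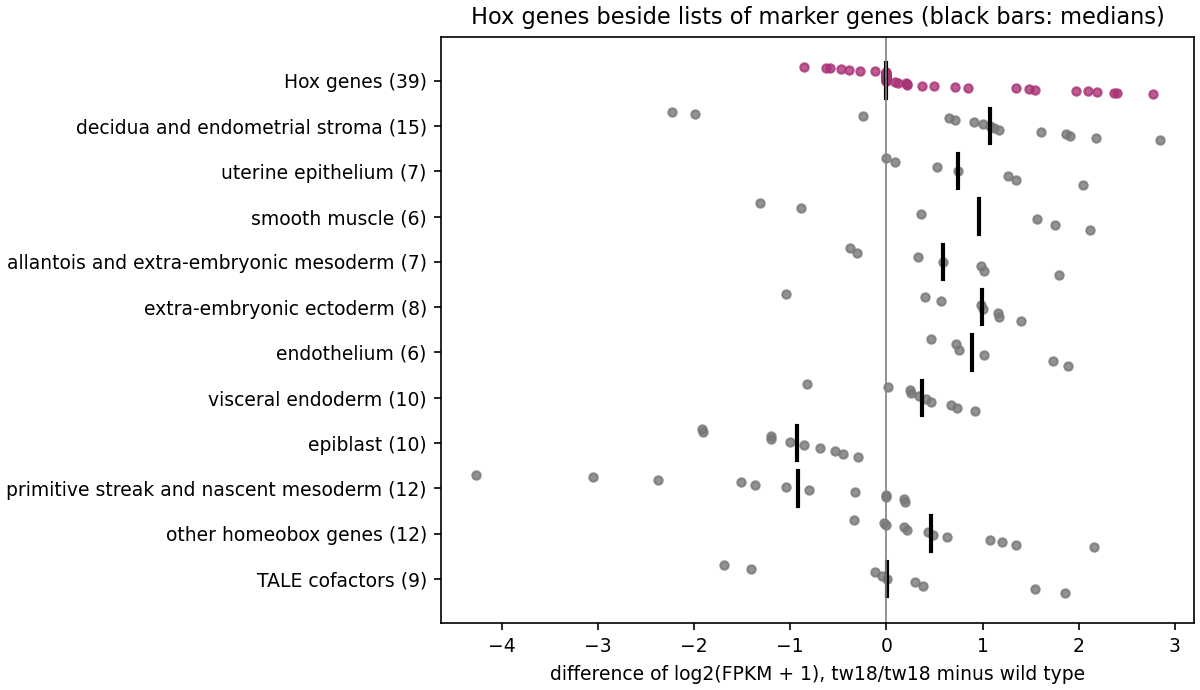
Difference of log2(FPKM + 1), *tw18*/*tw18* minus wild type, with 1 point per gene for the 39 Hox genes and for lists of markers and cofactors (number of genes in brackets) and black bars for medians. The Hox genes form a mass at 0 with a tail to 2.77, the decidua and endometrial stroma list has its median at 1.08 with 2 genes far to the left, and the epiblast and streak lists have medians of -0.93 and -0.92.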

How the data were processed

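RNA of E6.5 embryos was measured in 3 libraries, 1 per genotype, each assigned by its label. The authors mapped 50 bp paired-end reads to mm10 (GRCm38) with TopHat, and the FPKM values deposited in 1 table were calculated with Cuffdiff, which divides by transcript length and library size. The annotation, strand setting and number of embryos are not given in the sources used here, and the submitters' processing notes also name Bowtie 1.0.0 and Cufflinks 2.2.1. The Hox genes and all lists were chosen with earlier results of these data known. Some results are not reported here.

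Every Hox gene that reached an FPKM of 1 is given with its values. For the lists, members that pass the fold or define the list are named, and other genes were named after their values were seen. A gene was called where the higher FPKM of a pair was at least 1 and the log2 ratio without pseudocount was at least 1, and differences elsewhere are of log2(FPKM + 1). Depth was found from low FPKM values of single-transcript genes of 800 to 5000 bp. Of 214, 327 and 235 such values in wild type, *tw18*/+ and *tw18*/*tw18*, 83.6%, 86.2% and 86.0% lay within 0.2 of a whole fragment number. Fragment numbers use 1 transcript length per gene and are approximate. Positions came from GENCODE M21, promoters from RefSeq. The calls, the depth search and the intervals were tested on simulated data. Python 3.11.15, numpy 2.4.6, pandas 2.3.3, scipy 1.17.1 and matplotlib 3.10.9 were used. Alternatives were pseudocounts of 1, 0.1 and 2, a filter of 0.5 or none, a log2 threshold of 2, equal FPKM sums, centring, and *tw18*/+ as the reference.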

Additional observations from a re-analysis of the deposited data

How the results depend on the processing

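The count of 9 Hox genes higher in *tw18*/*tw18* than in wild type was the same or within 1.5 times under each alternative except no filter on low values, which gave 18 higher and 6 lower. Against *tw18*/+ no filter gave 17 higher and 8 lower. For *tw18*/+ against wild type it gave 9 higher and 5 lower, where a pseudocount of 1 or a log2 ratio of at least 2 gave 0 higher. A filter of 0.5 gave 3 lower in *tw18*/*tw18* than in wild type and 3 lower in *tw18*/+. Lower filters admit genes of few fragments. The median difference of the Hox genes was 0.05 when centred on the median log2 ratio of -0.049. The 9 single-gene differences between *tw18*/*tw18* and wild type kept their direction, but most settings could not have reversed it. A pseudocount cannot change the sign, and equal FPKM sums and centring both shift the log2 ratios upward here. Only *tw18*/+ as the reference could have reversed them, and with it 8 differences ran from 1.22 for *Hoxd4* to 3.34 for *Hoxd8*. Of these, 5 lay outside the counting interval of the reported value, as did 7 of 8 at a pseudocount of 1. The log2 ratios ran from 1.35 to 2.77 at a pseudocount of 1. At equal FPKM sums they ran from 2.13 for *Hoxd9* to 5.06 for *Hoxd3*, without *Hoxd4*. For *Hoxd4* the difference of log2(FPKM + 1) was 1.62 at equal FPKM sums. *Hoxd4* has no ratio without a pseudocount and *Hoxd3* none against *tw18*/+, so these could not be fitted. No paired analysis was possible because each genotype had 1 library. The lack of replicate embryos limits every difference given, and depth limits the Hox genes below an FPKM of 1.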
